A study of Mus musculus with 15 samples.

Results

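The genes described here encode the subunits of the mitochondrial respiratory chain and of ATP synthase, measured in memory and naive mouse B cells. They were chosen by name, from probe sets whose symbol in the files starts with Nduf, Uqcr or Atp5, is Sdha, Sdhb, Sdhc or Sdhd, or starts with Cox4 to Cox8. This gave 66 genes on 143 probe sets, out of 16623 gene symbols and 45037 probe sets other than controls. By complex, 30 genes belong to complex I, 4 to complex II, 3 to complex III, 15 to complex IV and 14 to complex V. Each gene was read from its brightest probe set in each screen. The name rule also took in Ndufaf1, an assembly factor of complex I, and Cox7a2l, a factor that joins complexes into supercomplexes, while Ndufa4 is counted with complex IV today although its name places it in complex I.

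Complexes I and II pass electrons from NADH and succinate to ubiquinone, complex III passes them on to cytochrome c, and complex IV reduces oxygen. Complexes I, III and IV pump protons, and complex V, the ATP synthase, uses the resulting gradient to make ATP. B cells rely on this chain when quiescent, and activated B cells enlarge it as they grow and divide. All genes treated here lie in the nucleus, and the mitochondrial genome encodes further core subunits of complexes I, III, IV and V.

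The cells were splenic B cells specific for the hapten NP, sorted in 2 screens; every donor carried the mVh186.2 transgene, which encodes the heavy chain typical of antibodies to NP. In the second screen memory cells (arrays EK, FG, HJ and I) came from AM14/Vk8R transgenic recipients given mVh186.2 transgenic splenocytes, and AA4.1-negative naive cells (arrays A, B, C and D) came from mVh186.2 transgenic Jk KO mice; AA4.1 marks immature B cells. In the first, both memory cells (D, E, F and G) and naive cells (A, B and C) were from mVh186.2 transgenic animals. Genotype and transfer therefore differ along with cell state in the second screen, and their parts cannot be told apart. Cells of all 4 groups were kept cold in buffer with sodium azide, an inhibitor of cytochrome c oxidase, during sorting. The labels call the replicates biological, and pooling of mice on arrays EK, FG and HJ is neither stated nor denied.

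All 7 B cell markers (among them Cd79a and Ms4a1) passed the filter in both screens, and none was called. Only 1 of the 7 had a higher mean in memory cells of the first screen (median change -0.16), and 3 did in the second (-0.02). Their summed intensity in the first was 110676 to 145714 in memory cells, against 135073 to 152710 in naive cells. In the second it was 102423 to 112117, against 102320 to 105224. Pax5, a transcription factor that defines B cells, was dim: in the first screen it averaged 5.93 ± 1.25 log2 units of intensity in memory cells (SD, n = 4), under the screen's median, and 8.03 ± 1.08 in naive cells (SD, n = 3), a difference of -2.10 (limma adjusted p = 0.357). Its naive mean lay above that median, so Pax5 may have passed the filter mainly through naive arrays. Median intensity was 103.4 to 153.7 on first-screen arrays and 25.0 to 26.0 on second-screen arrays, and precision is limited by how many arrays there are. Naive C and memory G, both of the first screen, stood apart, each correlating best with the other across groups (Spearman's rho 0.897 over all probe sets). Results of that screen are therefore also given without them.

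Markers of other cell types moved with the groups. The summed intensity of 6 erythroid markers in the first screen was 8312 to 31979 in memory cells, against 4126 to 7981 in naive cells. Of the 5 erythroid markers tested there, 4 had a higher mean in memory cells, but none was called higher and 1 was called lower. The sum of 8 myeloid markers in that screen was 3904 to 10105 in memory cells, against 1906 to 3124 in naive cells. Of the 7 tested, 6 had a higher mean in memory cells and none was called. In the second screen the myeloid sum was 4034 to 8209 in memory cells, against 1534 to 8624 in naive cells. Of the 7 tested, 6 had a higher mean in memory cells and 1 was called higher. The sum of 6 NK cell markers there was 140 to 249 in memory cells, against 547 to 864 in naive cells. Klrb1c, Klra8 and Prf1 lay below the screen median on every array, and all 3 NK cell markers tested were called lower. The sum of 7 T cell markers there was 669 to 824 in memory cells, against 924 to 1149 in naive cells. Of the 5 tested, 2 were called lower and 1 had a higher mean in memory cells. The sum of 5 dendritic cell markers there was 133 to 171 in memory cells, against 174 to 223 in naive cells. Flt3 was called lower, and Siglech and Xcr1 lay below the screen median on every array. Plasma cell markers summed to 14785 to 16695 in memory cells, against 5299 to 7862 in naive cells, in the second screen, and to 23278 to 27869 in memory cells, against 11988 to 14011 in naive cells, in the first. These sums did not reflect all plasma cell markers alike. In the second screen 1 of 6 tested was called higher, with a median change of 0.09. In the first 2 of 5 tested were called higher, and 3 of the 5 had a higher mean in memory cells. The part of these cells in the results below was not tested. In sorted bulk cells, a shift in cell makeup and a change of RNA per cell cannot be told apart.

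In the second screen, 9 of 64 tested respiratory chain genes were lower in memory cells and 2 were higher, at an adjusted p below 0.05 in limma with Benjamini-Hochberg adjustment over all 14664 genes and probe sets tested. The lower genes include Ndufa6, Ndufa3, Ndufs4 and Ndufb5 of complex I, Cox7a2l, Cox6b and Cox4i1 of complex IV, and Atp5g3 of complex V. The 2 higher genes are Ndufb10 of complex I and Atp5g1 of complex V. No gene of complexes II or III taken by the name rule passed, but some complex III genes filed under older names did, as given further below. The changes were small, between -0.33 and 0.27 on the log2 scale. The share of genes called lower was 14.1%, against 16.1% of all genes and probe sets tested, and the share called higher was 3.12%, against 10.5% of all. The share called lower thus lay close to that of the whole array. The counts depended on single arrays: 4 genes were lower without naive B or naive C, 5 without naive A and 16 without naive D, and none was higher without naive A, naive D or memory EK. Without a filter 6 were lower and 0 higher, and without the intensity trend 5 were lower.

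Of the 64 genes, 54 had a lower mean in memory cells and 10 a higher one, and the median change was -0.10, beside -0.03 over all tested, of which 45.3% were positive. Every memory array lay below every naive array for 13 genes (20.3%, against 17.4% of all tested) and above for 2 (3.12%, against 12% of all tested). Standard errors ran from 0.04 to 0.14, and the 95% confidence intervals of all 64 tested genes lay within a 1.5-fold change in either direction. By complex, the median change was -0.08 in complex I, -0.06 in complex II, -0.14 in complex III, -0.14 in complex IV and -0.13 in complex V.

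**Figure D1:**
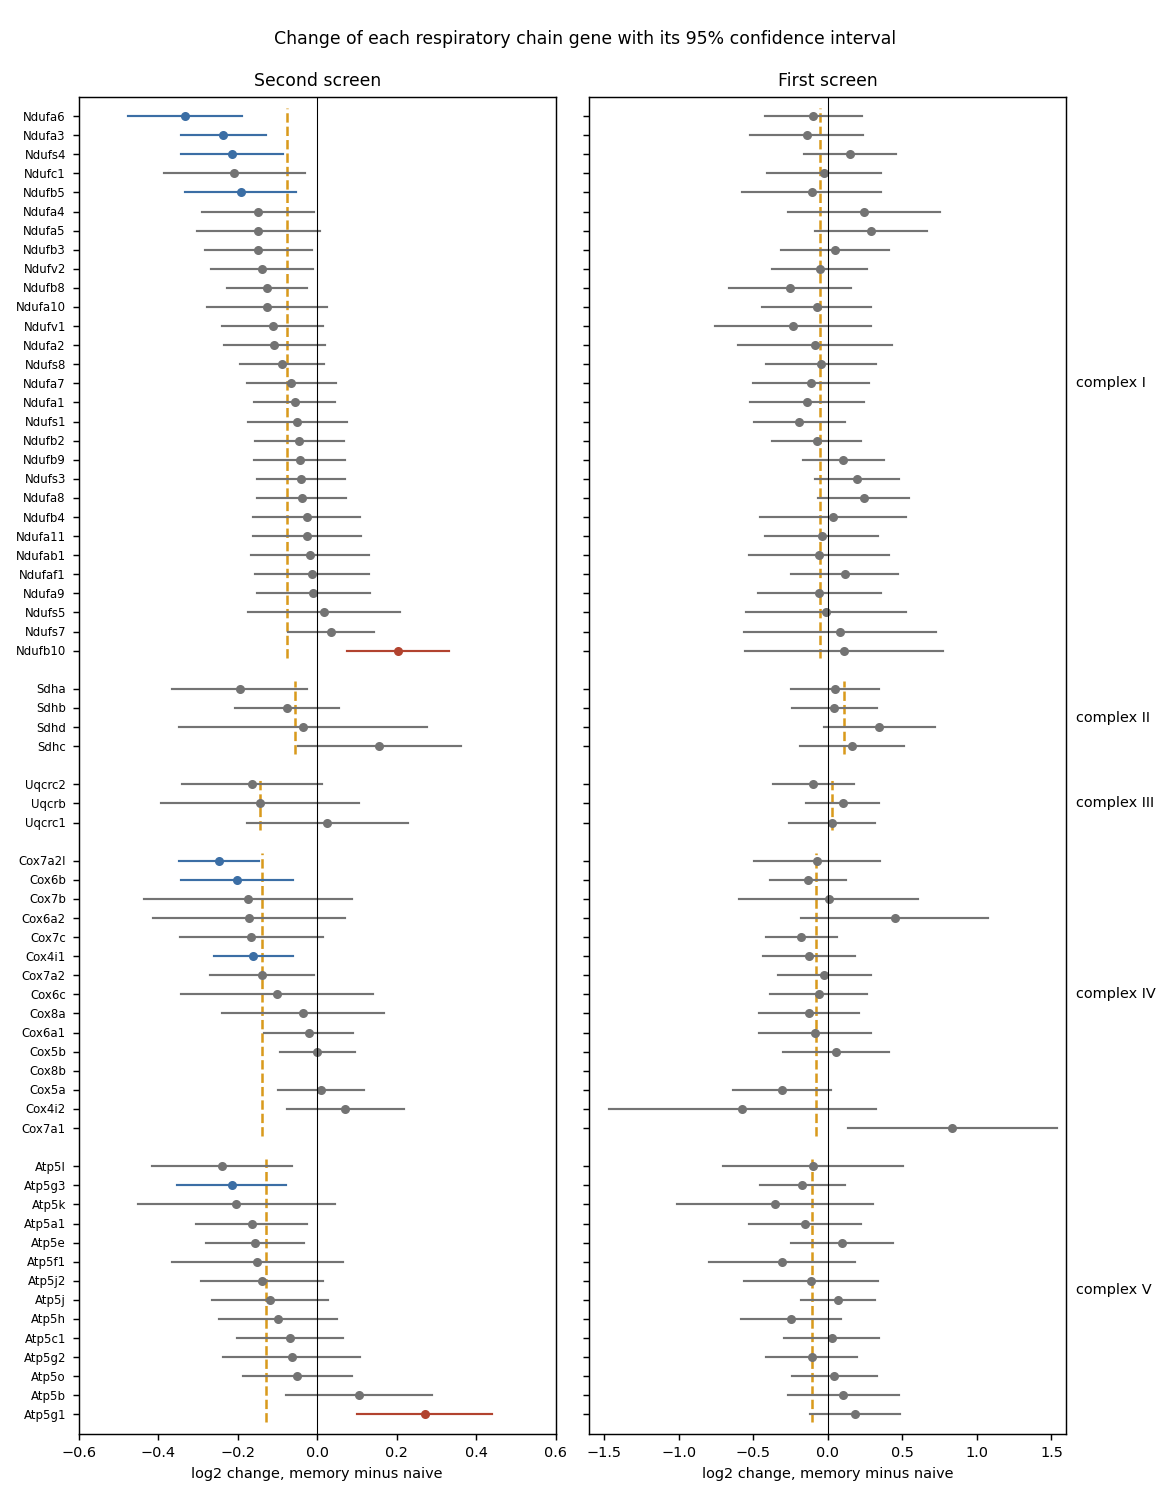
Change of each respiratory chain gene (log2, memory minus naive cells; point and 95% confidence interval), by complex, in the second screen (left) and the first (right; wider axis). Blue marks genes called lower, red genes called higher and grey the rest, and the dashed line is the median of the complex; Cox8b in both screens and Cox7a1 in the second were not tested. In the second screen 53 of the 63 genes plotted lie left of 0; in the first no gene was called.

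Complex I oxidises NADH through a core arm of conserved subunits, surrounded by accessory subunits. Of its 30 genes 5 were lower in memory cells of the second screen, 1 was higher and 24 were not called, and 27 of 30 had a lower mean. The core subunits of the NADH-oxidising module, Ndufv1, Ndufv2 and Ndufs1, had differences of -0.11, -0.14 and -0.05 and were not called.

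The accessory subunits held the largest change. Ndufa6, an accessory subunit needed for complex I activity, measured 10.81, 10.90, 10.95 and 10.97 log2 units of intensity in memory cells and 11.24, 11.26, 11.35 and 11.10 in naive cells. The groups did not overlap, and the mean fell by 20.6% (log2 change -0.33 ± 0.06 SE, limma adjusted p = 0.00474). Ndufa3, a small membrane accessory subunit, measured 12.10, 12.04, 12.16 and 12.13 in memory cells and 12.31, 12.30, 12.43 and 12.32 in naive cells. These groups did not overlap either (log2 change -0.24 ± 0.05 SE, limma adjusted p = 0.00604). Ndufs4, an accessory subunit whose loss in mice and humans causes a Leigh-like encephalopathy, measured 9.69, 9.68, 9.69 and 9.76 in memory cells and 9.90, 9.95, 10.01 and 9.81 in naive cells (limma adjusted p = 0.022). Ndufb5 of the membrane arm measured 12.49, 12.32, 12.52 and 12.28 in memory cells and 12.59, 12.55, 12.60 and 12.64 in naive cells, again without overlap (log2 change -0.19, limma adjusted p = 0.0465). Ndufb10, another membrane arm subunit, went the other way. It measured 11.34, 11.27, 11.49 and 11.32 in memory cells and 11.11, 11.17, 11.21 and 11.12 in naive cells, so that all memory arrays lay above all naive arrays (log2 change 0.20 ± 0.06 SE, limma adjusted p = 0.027).

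Across 16 alternative settings of the second screen, among them leaving out each of the 8 arrays in turn, Ndufa6 and Ndufa3 were called lower every time. Ndufs4 was called in 12 of 16, Ndufb10 in 11 and Ndufb5 in 8. The count for Ndufb5 includes the test of every probe set, where its other probe set was called and the one described here was not. Ndufb10 was lost without a filter on dim probe sets and without naive A, naive B, naive D or memory EK. Ndufs4 was lost without naive A, B or C or memory EK, and Ndufb5 without naive A, B, C or D or memory FG or I, without a filter and without the intensity trend.

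Promoters of the genes called in the most settings, and of the 2 that rose, are shown for their sequence around the transcription start. Sequences are from RefSeq (GRCm38.p6), where 54 of the 66 genes matched, among them 9 of the 11 called in the second screen. Each printed stretch runs 5′ to 3′ on the strand of the gene, from 120 bases before the start to 30 after it. Capitals mark matches, on either strand, to short motifs of factors known for respiratory chain promoters (NRF1, CGCANGCG; ETS factors such as GABP, CCGGAAG; YY1, AAGATGG) or for many promoters (NF-Y, CCAAT). For complex I these are Ndufa6 (chr15:82354262-82354411, minus strand), Ndufa3 (chr7:3617253-3617402, plus strand) and Ndufb10 (chr17:24724394-24724543, minus strand):
Ndufa6: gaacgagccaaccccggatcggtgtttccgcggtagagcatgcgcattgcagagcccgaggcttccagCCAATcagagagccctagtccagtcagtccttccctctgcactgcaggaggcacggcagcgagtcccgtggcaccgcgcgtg
Ndufa3: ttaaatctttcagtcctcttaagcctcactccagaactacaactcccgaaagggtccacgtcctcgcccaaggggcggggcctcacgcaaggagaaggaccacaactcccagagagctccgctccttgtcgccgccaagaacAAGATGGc
Ndufb10: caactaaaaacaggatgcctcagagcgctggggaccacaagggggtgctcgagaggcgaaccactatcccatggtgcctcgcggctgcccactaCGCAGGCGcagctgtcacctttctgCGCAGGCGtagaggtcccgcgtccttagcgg
The Ndufb10 stretch held 2 matches to the NRF1 motif, Ndufa3 held a YY1 match after the start, and Ndufa6 held a CCAAT box. Ndufa6 also had an NRF1 match at bases 25 to 32 after the start, which runs past the printed end. A match is a description of these letters and does not show binding.

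In the whole 300-base windows (250 before the start, 50 after), the NRF1 motif was in 19 of 54 respiratory chain promoters (35.2%), beside 8.42% of all 27025 promoters. It was in 8 of 26 promoters of complex I, 2 of 3 of complex II, the 1 of complex III, 1 of 11 of complex IV and 7 of 13 of complex V. The ETS motif was in 12 (22.2%), beside 9.12% of all, and the YY1 motif in 9 (16.7%), beside 6.48% of all. CCAAT, in 21 (38.9%), was about as frequent as in all promoters (37.9%). More than 1 of these 4 motifs was in 17 promoters, and no matches of different motifs shared a base. Among genes called lower, the NRF1 motif was in Ndufa6 and Atp5g3, the ETS motif in Cox6b, and the YY1 motif in Ndufa3 and Ndufs4. Among genes called higher, only Ndufb10 held any of these 3 motifs, the NRF1 motif.

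Complex II, succinate dehydrogenase, is built from nuclear subunits alone and also serves the citric acid cycle. None of its 4 genes was called in either screen. Sdha, the catalytic flavoprotein, measured 10.79, 11.01, 10.74 and 10.86 in memory cells and 11.12, 11.14, 10.94 and 10.96 in naive cells of the second screen, with overlapping groups (log2 change -0.19 ± 0.08 SE, limma adjusted p = 0.088). Sdhb, the iron-sulphur subunit, measured 10.08, 10.08, 10.03 and 10.03 in memory cells and 10.07, 10.26, 10.12 and 10.06 in naive cells (log2 change -0.08). Without memory FG, Sdha was called lower (-0.25, limma adjusted p = 0.0348). Both genes of the catalytic pair had lower means in memory cells, and the groups overlapped for both. Sdhc, a membrane anchor, measured 10.27, 10.46, 10.11 and 10.17 in memory cells and 10.07, 9.96, 10.08 and 10.27 in naive cells (log2 change 0.16, limma adjusted p = 0.244). Sdhd, the other anchor, measured 10.57, 10.37, 10.65 and 9.96 in memory cells and 10.38, 10.39, 10.37 and 10.55 in naive cells. Memory I was the low array, and without it the change of Sdhd was 0.11 in place of -0.04. A dimmer probe set of Sdhd had a difference of -0.00248 ± 0.05 SE in this screen.

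On their brightest probe sets, all 4 genes of complex II had higher means in memory cells of the first screen. The differences were 0.05 for Sdha, 0.04 for Sdhb, 0.16 for Sdhc and 0.35 for Sdhd. With each array centred on its median the first 3 turned to -0.14, -0.15 and -0.03, while the median of all genes tested shifted from 0.02 to -0.18. Sdha and Sdhd were read from other probe sets here than in the second screen. The probe sets used there gave -0.0951 for Sdha and 0.0924 for Sdhd in the first screen. Sdha measured 12.52, 12.26, 12.28 and 12.43 in memory cells and 12.14, 12.32 and 12.50 in naive cells. Sdhb measured 12.36, 12.23, 12.18 and 12.38 in memory cells and 12.08, 12.24 and 12.42 in naive cells, so that the groups overlapped for both catalytic genes. Sdhc measured 10.39, 10.39, 10.07 and 10.31 in memory cells and 10.01, 10.05 and 10.34 in naive cells. Sdhd measured 11.51, 11.40, 10.97 and 11.05 in memory cells and 10.76, 10.91 and 10.99 in naive cells, so that only memory F fell among the naive arrays (limma adjusted p = 0.548).

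Complex III, the cytochrome bc1 complex, was covered by the core proteins Uqcrc1 and Uqcrc2 and by Uqcrb, a small subunit close to the ubiquinone site. None of them was called. Uqcrh, Uqcr10 and Uqcr11 of this complex, filed under older names, were called in the second screen and are described further below. Uqcrc2 measured 10.53, 10.78, 10.44 and 10.42 in memory cells and 10.69, 10.74, 10.70 and 10.71 in naive cells of the second screen; memory FG stood above the naive arrays and the others below them (log2 change -0.17 ± 0.08 SE, limma adjusted p = 0.155). Without memory FG the change was -0.24 (limma adjusted p = 0.0106). Uqcrb had a difference of -0.14. Uqcrc1 measured 10.26, 10.53, 10.08 and 10.27 in memory cells and 10.26, 10.28, 10.18 and 10.33 in naive cells, with no separation. In the first screen Uqcrb measured 14.48, 14.45, 14.65 and 14.48 in memory cells and 14.40, 14.56 and 14.28 in naive cells, and the groups overlapped (log2 change 0.10, or -0.09 with each array centred on its median).

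Complex IV, cytochrome c oxidase, had 3 of 13 tested genes lower in memory cells of the second screen and none higher. Cox7a2l measured 11.30, 11.37, 11.33 and 11.41 in memory cells and 11.62, 11.55, 11.64 and 11.57 in naive cells. The gap between the groups exceeded the spread within either, and the mean fell by 15.7% (log2 change -0.25 ± 0.04 SE, limma adjusted p = 0.0035). It was called in all 16 alternative settings. Its promoter (chr17:83514304-83514453, minus strand, 120 bases before to 30 after the start) held none of the 4 motifs in the printed stretch:
Cox7a2l: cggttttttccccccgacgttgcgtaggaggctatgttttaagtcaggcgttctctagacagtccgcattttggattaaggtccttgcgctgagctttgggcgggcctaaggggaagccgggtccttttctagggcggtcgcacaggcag
Cox6b, named Cox6b1 today, faces the space where cytochrome c docks. It measured 12.20, 12.00, 12.17 and 12.10 in memory cells and 12.35, 12.41, 12.30 and 12.20 in naive cells, and memory EK and naive D nearly met (log2 change -0.20 ± 0.06 SE, limma adjusted p = 0.0417). It was called in 7 of 16 settings, and leaving out naive A, B or C or memory FG, HJ or I ended the call. Cox4i1, the ubiquitous form of the largest nuclear subunit, measured 12.61, 12.67, 12.66 and 12.71 in memory cells and 12.78, 12.89, 12.85 and 12.77 in naive cells (log2 change -0.16 ± 0.04 SE, limma adjusted p = 0.0248). Those groups did not overlap, and the call held in 12 of 16 settings but not without naive B, naive C, memory EK or the intensity trend. Cox5a, which pairs with Cox4i1, and Cox5b had differences of 0.01 and 0.00042, with standard errors of 0.05 and 0.04. Subunits of a single enzyme thus had differences between -0.20 and 0.01 over the 10 common forms. These include Cox7b (-0.17), which was dim and lay above the screen median on only 6 of 8 arrays.

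The isoforms of muscle, heart and lung were mostly dim in these B cells, but so was the common form Cox7b. Cox7b averaged 7.39 in memory cells and 7.38 in naive cells of the first screen, and 4.70 and 4.87 in the second. These values came from a different probe set in each screen, the 1 of 2 that passed the filter there. Whether they reflect the gene or its probe sets was not tested. Cox8b passed the filter in neither screen. Cox7a1, the heart and muscle form, was under the filter in the second screen, at 4.12, 4.57, 4.16 and 4.12 in memory cells and 4.35, 4.12, 3.79 and 4.12 in naive cells. In the first it measured 7.42, 7.32, 7.97 and 7.56 in memory cells and 6.73, 6.69 and 6.78 in naive cells. There all memory arrays lay above all naive arrays (log2 change 0.84 ± 0.31 SE), as they did for 6.82% of all tested, but the adjusted p was 0.38 in limma. Only 4 of the 7 arrays, all of memory cells, lay above the screen median of 6.98. Cox7a1 thus passed the filter of that screen through memory cells alone, and its separation is not independent of the filter. Cox4i2, known from lung, measured 7.04, 7.69, 6.15 and 6.98 in memory cells and 7.47, 7.42 and 7.73 in naive cells of the first screen, and had a difference of 0.07 in the second. Cox6a2, another heart and muscle form, measured 8.16, 8.14, 8.86 and 8.01 in memory cells and 7.54, 7.76 and 8.22 in naive cells of the first screen. All 7 of those values lay above the screen median. In the second screen Cox6a2 measured 4.70, 4.78, 4.43 and 4.83 in memory cells and 4.69, 4.95, 4.77 and 5.02 in naive cells, so the groups overlapped in both.

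Complex V makes ATP with a catalytic head, F1, driven by a rotating ring of c subunits. Of its 14 genes 1 was lower in memory cells of the second screen, 1 was higher and 12 were not called. Both called genes encode subunit c. Atp5g1, Atp5g2 and Atp5g3 carry different targeting sequences but give the same mature protein. Atp5g1 measured 10.60, 10.61, 10.40 and 10.40 in memory cells and 10.12, 10.30, 10.33 and 10.19 in naive cells, all memory arrays lying above all naive arrays. The mean was 1.21-fold higher (log2 change 0.27 ± 0.08 SE, limma adjusted p = 0.0269). Atp5g3 measured 12.60, 12.70, 12.49 and 12.57 in memory cells and 12.78, 12.93, 12.79 and 12.72 in naive cells, all memory arrays lying below. Its mean fell by 13.8% (log2 change -0.21 ± 0.06 SE, limma adjusted p = 0.0286). Atp5g2 had a difference of -0.06 with overlapping groups. The first screen gave differences of 0.18 for Atp5g1, -0.11 for Atp5g2 and -0.17 for Atp5g3, none called.

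The calls on subunit c depended on single arrays. Atp5g1 was called in 11 of 16 settings and was lost without a filter and without naive A, naive D, memory EK or memory FG (adjusted p between 0.0114 and 0.0783). Atp5g3 was called in 8 of 16 and was lost without naive A, B or C or memory EK, HJ or I, without a filter and without the intensity trend (adjusted p between 0.00827 and 0.0695). The promoters of Atp5g1 (chr11:96075602-96075751, minus strand) and Atp5g3 (chr2:73911297-73911446, minus strand) are set side by side because their transcripts went opposite ways, with the same limits and capitals as above:
Atp5g1: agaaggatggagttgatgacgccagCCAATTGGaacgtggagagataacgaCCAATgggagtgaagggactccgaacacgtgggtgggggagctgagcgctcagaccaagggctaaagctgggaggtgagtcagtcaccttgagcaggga
Atp5g3: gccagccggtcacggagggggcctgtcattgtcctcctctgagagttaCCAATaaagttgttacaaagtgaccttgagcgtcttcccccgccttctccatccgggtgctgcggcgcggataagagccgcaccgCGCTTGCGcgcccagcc
Atp5g1 held CCAAT boxes, 2 of them overlapping on opposite strands, and no NRF1 match. Atp5g3 held 1 CCAAT box and an NRF1 match at bases 14 to 21 after the start.

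The remaining genes of complex V were not called. The F1 genes Atp5a1 and Atp5b, the catalytic pair that binds nucleotides, had differences of -0.16 and 0.10, and none of the 4 F1 genes was called. The 4 genes of the peripheral stalk, which holds the head still, had differences of -0.15 to -0.05. The membrane subunits e, f and g, which help ATP synthase form dimers, had differences of -0.20 (Atp5k), -0.14 (Atp5j2) and -0.24 (Atp5l). Atp5l measured 10.65, 10.50, 10.76 and 10.80 in memory cells and 10.90, 10.93, 11.04 and 10.80 in naive cells, and missed the threshold narrowly (limma adjusted p = 0.0505).

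**Figure D2:**
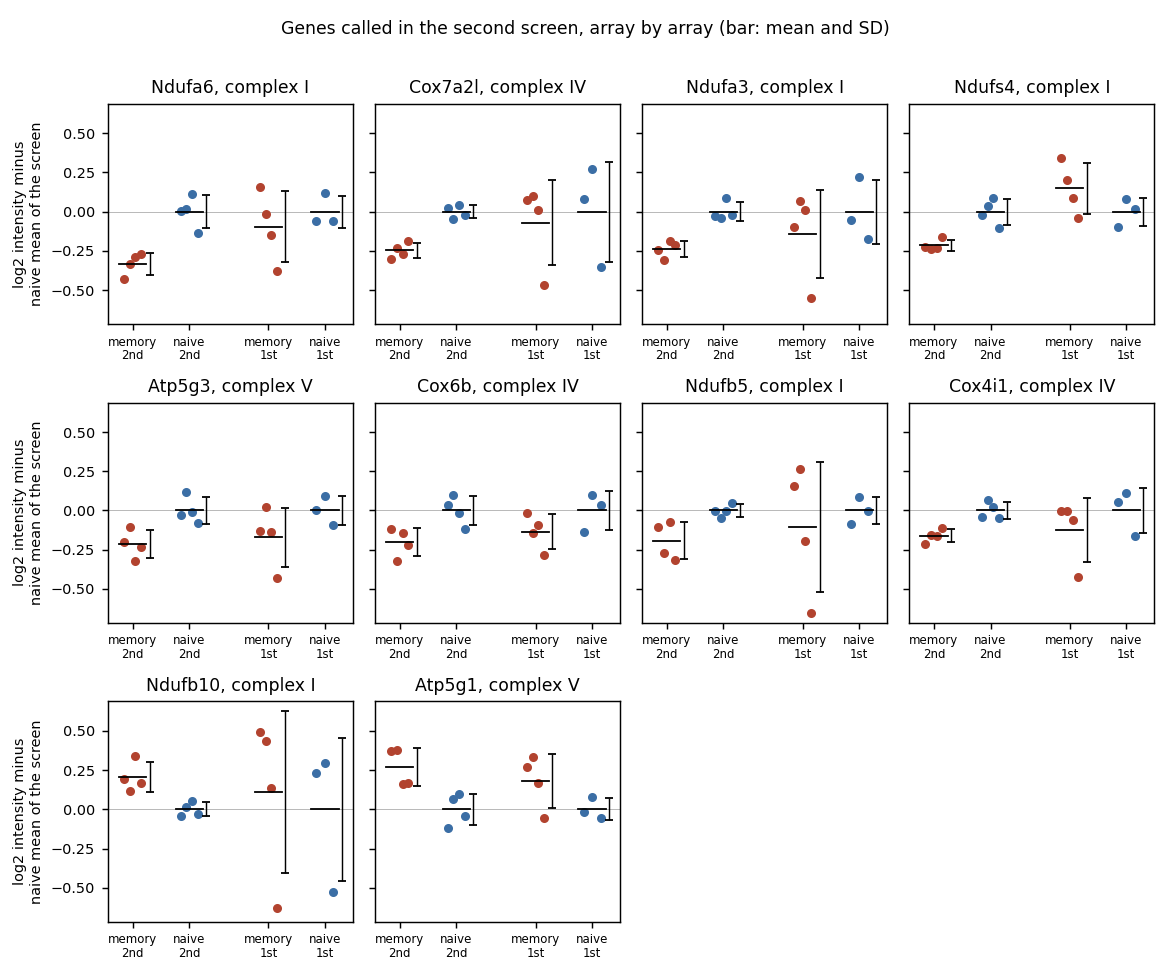
Genes called in the second screen, 10 of them, array by array, as log2 intensity minus the naive mean of the same screen; red points are memory arrays, blue points naive arrays, the line is the mean and the bar the SD. In the second screen the groups do not overlap for any of the 10 genes; in the first they overlap for all 10, and memory G is the lowest memory array in each panel.

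In the first screen no respiratory chain gene was called, of 65 tested. Over all 15836 genes and probe sets, 0.638% were called higher and 0.189% lower there, so few calls were made on the whole array. At an unadjusted p under 0.05 there was 1 gene, Cox7a1, where 9.92% of all tested were below that value. Cox7a1 had passed the filter through its memory arrays alone. The median change was -0.05 (0.02 over all tested), with 27 genes higher and 38 lower. Standard errors were 0.11 to 0.40, against 0.04 to 0.14 in the second; 61 of the 65 intervals lay within a 2-fold change and 49 within a 1.5-fold change. Cox7a1 was the 1 gene with all memory arrays above all naive arrays (1.54%, against 6.82% of all tested), and Cox7c the 1 gene with all below (1.54%, against 4.5% of all tested). Cox7c measured 13.01, 12.96, 12.92 and 12.90 in memory cells and 13.04, 13.10 and 13.23 in naive cells.

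By the smallest p within its complex, Ndufa8 stood first in complex I at 12.10, 12.03, 11.87 and 11.92 in memory cells and 11.83, 11.87 and 11.51 in naive cells (limma adjusted p = 0.632). Ndufa8 is an accessory subunit that faces the intermembrane space. In complex V it was Atp5h of the peripheral stalk, which measured 13.35, 13.46, 13.35 and 12.96 in memory cells and 13.62, 13.66 and 13.31 in naive cells (log2 difference -0.25, limma adjusted p = 0.669). The groups overlapped for both.

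The direction in the first screen rested on memory G. On that array the median respiratory chain gene lay 0.31 log2 units below its mean over the screen (deviation -0.31), against deviations of 0.12, 0.13 and -0.01 on memory D, E and F and of -0.01, 0.15 and -0.07 on naive A, B and C. The genes of complex I (-0.35), complex IV (-0.22) and complex V (-0.33) were low together on memory G, and those of complexes II (0.08) and III (0.01) were not. All tested genes had a median deviation of 0.02 on that array. Without memory G the median change of the respiratory chain genes was 0.07, with 43 of 65 genes higher in memory cells, and without both naive C and memory G it was -0.0033, with 32 of 65 higher. Without naive B, where the genes lay high, it was 0.04. No respiratory chain gene was called in the first screen in any of these settings.

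**Figure D3:**
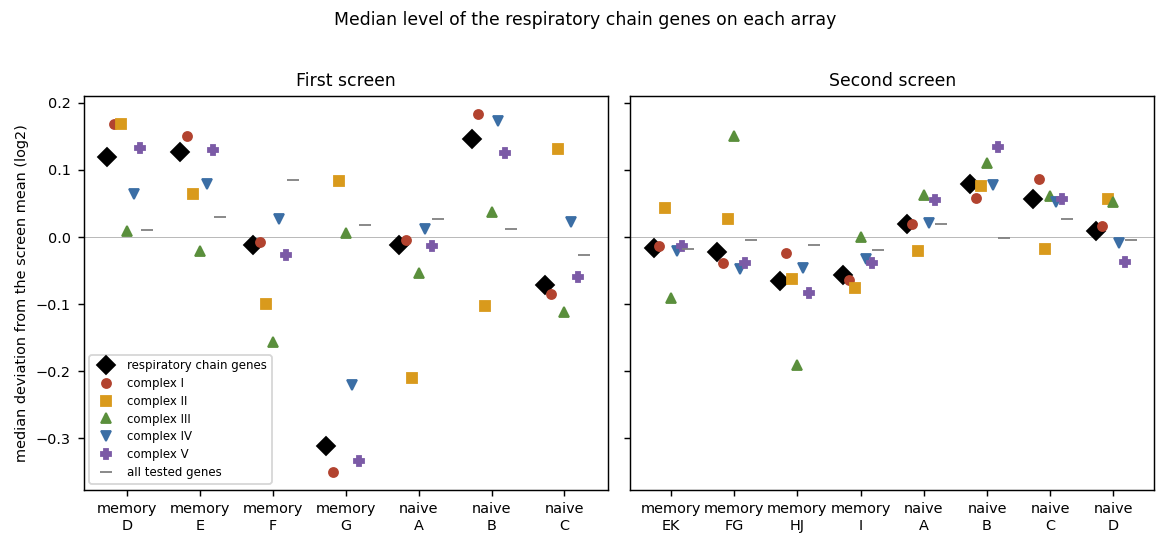
Median deviation (log2) of the tested respiratory chain genes from their mean over the screen on each array, all together (black) and by complex, with the median of all tested genes as a grey dash; memory arrays stand left of naive arrays in each screen. Memory G of the first screen lies at -0.31, and in the second screen the 4 memory arrays lie between -0.07 and -0.02 and the 4 naive arrays between 0.01 and 0.08.

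The change in one screen was set against that in the other in a single fit of all 15 arrays, with 1 probe set per gene kept for both. The screens share no arrays. Of 63 genes tested, 43 had a difference of the same sign in both screens and none had a different change at an adjusted p below 0.05. The count of same signs was not made over all tested, and the direction in the first screen rested on memory G. It is therefore not read as agreement between the screens. Over all 12940 tested, 0.556% changed more positively in the second screen and 0.757% more negatively. At an unadjusted p under 0.05 there were 4 of the 63 genes (6.35%), beside 12.5% of all tested. The 9 genes called lower in the second screen are therefore not shown to behave differently in the first. The smallest p belonged to Ndufs4, with -0.22 in the second screen and 0.15 in the first (difference -0.36 ± 0.13 SE, limma adjusted p = 0.232). First-screen values of Ndufs4 were 11.32, 11.18, 11.07 and 10.94 in memory cells and 10.88, 11.06 and 10.99 in naive cells. Ndufa8, Sdhd, Ndufs3 and Cox6a2 followed with differences of -0.28, -0.35, -0.24 and -0.62, and Cox5a with 0.32. Cox5a measured 12.98, 12.97, 13.06 and 12.86 in memory cells and 12.95, 12.97, 12.94 and 12.96 in naive cells of the second screen, and 13.40, 13.48, 13.13 and 13.00 in memory cells and 13.57, 13.70 and 13.41 in naive cells of the first. Ndufs3, a core subunit of complex I, measured 10.61, 10.74, 10.58 and 10.64 in memory cells and 10.68, 10.72, 10.66 and 10.68 in naive cells of the second screen, and 11.91, 11.84, 11.72 and 11.90 in memory cells and 11.71, 11.75 and 11.48 in naive cells of the first. For both genes the groups overlapped in each screen. Without naive C and memory G the difference passed for Ndufs4 (limma adjusted p = 0.0315) and for Ndufa4. Without naive C alone it passed for Ndufa4 (limma adjusted p = 0.0486).

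**Figure D4:**
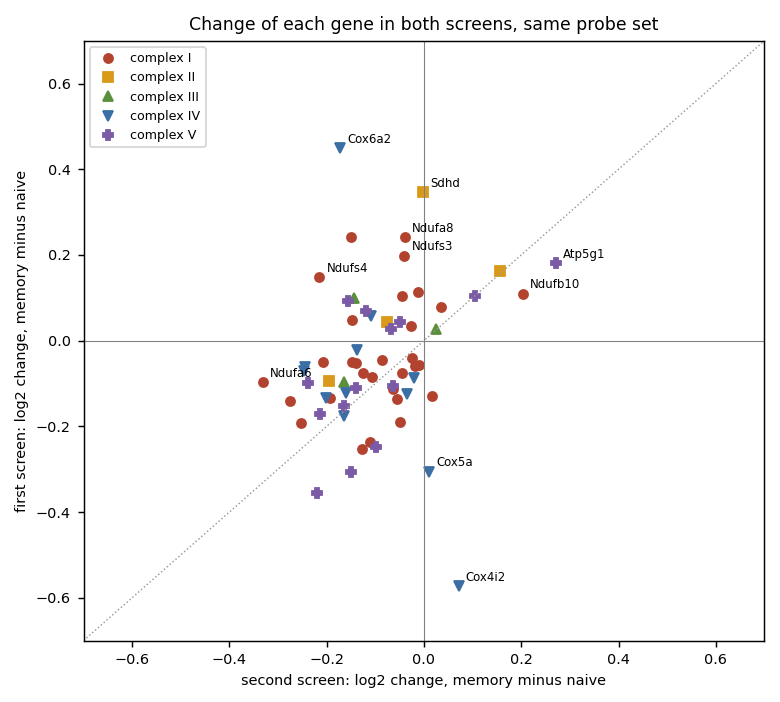
Change of each gene (log2, memory minus naive cells) in the second screen (x axis) and the first (y axis), with the same probe set in both; the dotted line marks equal change and symbols mark the complex. Of 63 genes, 43 lie at the lower left or upper right of the 0 lines, a count not made over all tested. The labelled genes include those 6 whose screens differed at the lowest p.

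Probe sets of the same gene mostly fell on the same side of the threshold. For 39 genes the second screen had several probe sets above the filter, and for 7 of these genes the calls differed when every probe set was tested. The brightest probe set of Cox6c measured 12.31, 11.92, 12.33 and 11.89 in memory cells and 12.18, 12.19, 12.18 and 12.30 in naive cells and was not called (-0.10), while another fell by 0.24 on the log2 scale (limma adjusted p = 0.0137). Ndufc1 measured 9.62, 9.43, 9.67 and 9.36 in memory cells and 9.79, 9.71, 9.75 and 9.68 in naive cells on its brightest (-0.21, limma adjusted p = 0.0877), and its other probe set was lower by the test (-0.22, limma adjusted p = 0.0362). Ndufb5 had its brightest at -0.19 (limma adjusted p = 0.0508) and another at -0.24 (limma adjusted p = 0.0137). Of the 3 Cox7a2l probe sets 2 were lower, at -0.25 and -0.31, and the third was at -0.20 (limma adjusted p = 0.123). Ndufs4 was lower on its brightest alone, and Atp5j2 on a dim probe set alone (-0.39, limma adjusted p = 0.0215). Its brightest measured 12.61, 12.36, 12.47 and 12.51 in memory cells and 12.67, 12.67, 12.71 and 12.47 in naive cells. A probe set filed as Uqcrc1 was lower by the test (-0.45, limma adjusted p = 0.000865), but the other name column of the files assigns it to Gripap1, so it is not read as Uqcrc1. In all, 9 of the 143 probe sets carry another name in that column, and none of them was the brightest of its gene. Of the 64 brightest probe sets of the second screen, 9 end in _s_at and 5 in _x_at, which mark probes shared with other transcripts, so processed pseudogenes and paralogues may add to those values.

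Other genes of the same pathways were counted from fixed lists. None was called in the first screen. In the second, where 16.1% of all genes and probe sets tested were lower and 10.5% higher, complex I, II and V assembly factors had 4 of 11 tested genes lower and 1 higher. Lower were Foxred1 (-0.49), Sdhaf2 (-0.33), Sdhaf4 (-0.31) and Acad9 (-0.29), and higher was Ecsit (0.43). Of these, Sdhaf2 attaches the flavin to Sdha, and Foxred1, Acad9 and Ecsit act in complex I assembly. Cytochrome c, cytochrome c1 of complex III (Cyc1) and factors of heme and copper delivery together had 1 of 8 lower and none higher. The lower gene was Cox11 (-0.31), which delivers copper, and cytochrome c itself (Cycs) was at -0.000639. Of 13 citric acid cycle and pyruvate dehydrogenase genes 2 were lower, fumarase (Fh1, -0.25) and Pdha1 (-0.27), and 1 was higher, Suclg2 (0.38).

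Among 13 tested regulators of mitochondrial biogenesis, 1 was higher and 1 lower in the second screen. Pprc1, a coactivator related to PGC-1, averaged 9.73 ± 0.12 in memory cells and 9.16 ± 0.10 in naive cells (SD, n = 4 each; log2 change 0.57, limma adjusted p = 0.000646). Gabpb1, a subunit of the ETS factor GABP, averaged 8.10 ± 0.08 in memory cells and 8.62 ± 0.05 in naive cells (SD, n = 4 each; log2 change -0.53, limma adjusted p = 0.000457). Nrf1 was at -0.37 (limma adjusted p = 0.0541) and Tfam, which packages and transcribes mitochondrial DNA, at -0.09. Pprc1 was at 0.27 and Gabpb1 at -0.15 in the first screen, neither called. Among 13 tested electron donors and carriers 2 were lower, Gpd2 (-0.38) and Etfdh (-0.28), both of which feed electrons to ubiquinone. Of 76 mitochondrial ribosomal proteins 6 were lower and 3 higher, with Mrpl9 at -0.40 and Mrps18b at 0.44.

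Further respiratory chain genes stand in the files under older names and so fell outside the name rule. Of 19 of them tested in the second screen, 4 were lower (21.1%, against 16.1% of all tested) and 1 higher (5.26%, against 10.5%). Uqcrh, the hinge protein of complex III, averaged 12.47 ± 0.13 in memory cells and 12.87 ± 0.07 in naive cells (SD, n = 4 each; log2 change -0.40, limma adjusted p = 0.00283). Uqcr10 of complex III (-0.22), Ndufb11 of complex I (-0.20) and Ndufaf3, a complex I assembly factor (-0.29), were lower as well, and Uqcr11 of complex III (0.19) was higher.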

How the data were processed

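Transcript levels of sorted mouse B cells were measured on 15 oligonucleotide arrays. The deposited value is an intensity on a linear scale; the authors used GCRMA for the second screen, per the submitters' processing notes, while for the first the sources used here give no software. The intensity plus 1 was log2-transformed. Probe sets were kept if they exceeded the screen's median over all values on at least 3 arrays (first) or 4 (second); 64 controls were left out. The brightest probe set of each gene was tested, with symbols updated through RefSeq names. Each screen was fitted alone in limma 3.58.1 (R 4.3.3; lmFit, eBayes with trend, Benjamini-Hochberg, threshold 0.05), and the difference between screens in 1 fit of 4 groups. The fits were tested on simulated data. Promoters were read in Python 3.11.15 with pandas 2.3.3, and figures drawn with Matplotlib 3.10.9. Some genes selected by the rules below are counted but not reported here by name. The motifs were chosen after longer forms had been looked at.

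The members, the gene lists and the markers were chosen with earlier results of these data known. Array values are given for the called genes with the 2 largest rises and falls per complex and screen (or the smallest p), all of complex II, the 6 smallest p of the difference, and genes whose probe sets disagree; other genes with array values were added after their values were seen. Alternatives were a stricter filter or none, quantile normalization or median centring of the arrays, 16 as the pseudocount, testing every probe set or the same one in both screens, and eBayes without the trend. Others were a block of naive C with memory G, the fit without both, separate fits subtracted from each other, and omission of single arrays.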

Additional observations from a re-analysis of the deposited data

Results flagged for a closer look

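Of 50 groups of 4 arrays looked at, 2 held an array far from the others by Dixon's criterion; chance flags about 1 in 20 groups. Uqcrb of complex III had its highest first-screen memory array at 14.65, and the next at 14.48. Sdhd of complex II had its highest second-screen naive array, naive D, at 10.55, and the next at 10.39. Neither gene was called in either screen.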

How the results depend on the processing

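No paired analysis was possible because memory and naive arrays of a screen share no replicate letter. With each first-screen array centred on its median, the median of all genes shifted to -0.18, and the median change of the respiratory chain genes was -0.24, with -0.0864 in complex II, -0.16 in complex III, -0.27 in complex IV and -0.29 in complex V; relative to all genes it was -0.07, as without centring. Sdha, Sdhb, Sdhc and Uqcrb of that screen turned to -0.14, -0.15, -0.0296 and -0.0922 under centring. Sdha was -0.0951 with the same probe set in both screens and -0.0389 to 0.14 with 1 array left out (-0.000509 without memory D), and Sdhb -0.0416 to 0.13; the lowest of each was without naive A. Sdhd of the second screen ran from -0.13 to 0.11, at 0.00723 without naive D and 0.11 without memory I.

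With every probe set tested, the median was -0.0959 in complex III of the first screen, and -0.11 in complex I and -0.0568 in complex IV of the second. Complex IV of the second was at -0.10 without a filter and with the stricter one. In the second screen 0 genes were called higher without a filter, where 1286 of all tested were (and 2 with it), and 5 lower without the intensity trend. Leaving out 1 array at a time gave 4 to 16 genes lower and 0 to 2 higher: 4 lower without naive B or naive C, 5 without naive A and 16 without naive D. The medians of that screen then ran from -0.0958 to 0.0198 in complex II and from -0.15 to -0.0780 in complex IV. The difference between the screens was called for 2 genes without naive C and memory G, and for 0 to 1 with 1 array left out. The cause of these shifts was not tested. The number of arrays and, in the first screen, their spread limit what can be seen.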
